A study of Mus musculus with 60 samples.

Results

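The bacteria described here are those assigned to the phylum Fusobacteriota or to the families Neisseriaceae, Porphyromonadaceae, Weeksellaceae and Flavobacteriaceae. These lineages include genera known from the surfaces of the mouth and throat. The rule reads the lineage of a feature and no abundance. The choice took in 529 of 8574 features, where a feature is 1 distinct 16S rRNA gene sequence and its count is the number of reads of that sequence in a library. These 529 were among 7922 features with a bacterial or archaeal lineage, called prokaryote features below. They held 137186 counts under 17 genus labels, and 11 of these labels had at least 100 counts. Their working name, oral anaerobes, fits only some of them. Fusobacterium, Leptotrichia and Porphyromonas are anaerobes, but Neisseria and Bergeyella grow in air. The family rule also brought in Flavobacterium, Chryseobacterium and Myroides, genera known from soil and water, and a narrower rule without these and other minor genera of their families left 515 features.

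In dental plaque, as known from people, streptococci and Neisseria settle early on the tooth surface, Fusobacterium binds both early and late settlers and so links them, and Porphyromonas and Leptotrichia follow where oxygen is low. Porphyromonas and Fusobacterium live on peptides, Leptotrichia ferments sugars to lactic acid, and Capnocytophaga needs added carbon dioxide. In people, small amounts of saliva reach the lung by aspiration and the gut by swallowing, and Fusobacterium nucleatum and Porphyromonas gingivalis have been studied in gum disease and in colorectal tumours. Streptobacillus, a relative of Leptotrichia, is a throat dweller of rats that causes rat-bite fever.

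The study followed the bacteria of 12 male mice, of which 6 were gavaged daily with 0.5 mg of polyethylene terephthalate (PET) nanoparticles, a plastic of bottles and textiles, in 0.1 ml for 28 days and 6 were controls that the labels describe only as not exposed. Strain and age are not stated in the sources used here. Each arm gave 6 libraries of each of 5 sample types, namely stool after 1 week and stool, colon tissue, lung tissue and oral swab at day 28, which makes 10 groups and 60 libraries. The numbers given to libraries below, such as PET 1, name a library within its group and tie it to no library of another site. The comparisons asked whether exposure changed these bacteria at each site, and whether mouth, lung and colon held the same ones.

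Library totals ran from 10543 to 1083575 counts. Lung libraries were the shallowest, at 10543 to 133219 counts in the PET arm and 21912 to 326834 in the control arm. DNA of colon and lung was taken with 1 kit and DNA of stool and oral swabs with another, so that kit and site cannot be told apart between these pairs. The values are shares of a library's prokaryote counts, and a higher share through more of these bacteria and a higher share through fewer of the others cannot be told apart. Oral swabs carried their label, with a summed share of 5 genera of the mouse mouth (Muribacter, Rodentibacter, Streptococcus, Gemella and Staphylococcus) of 81.2% ± 21.5 in PET and 87.1% ± 5.06 in control swabs (SD, n = 6 each, as below).

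The set was scarcer in colon than in lung and oral swabs, and close to absent in stool. The highest shares were those of lung PET 1 and control 4. In lung its summed share had a lowest, median and highest value of 0.0808%, 1.79% and 17.3% in PET libraries and of 0.210%, 1.42% and 19.3% in control libraries. In oral swabs these values were 0.496%, 0.722% and 4.10% in PET and 0.0162%, 1.90% and 6.23% in control libraries. In colon they were 0.0266%, 0.269% and 0.736% in PET and 0%, 0.000621% and 0.0468% in control libraries. The arms thus overlapped widely in lung and oral swabs, and in colon through control 2, whose counts were all Flavobacterium.

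Stool held almost none of them. At day 28 they had 7 counts of 2342639 in PET stool and 15 of 2817604 in control stool, and after 1 week 16 counts in PET stool and 0 of 2243875 in control stool, which allows a share of up to 0.000134%. No stool library had more than 1 of the features, and no member genus passed the filter of the exposure test in stool, which asked for 10 counts in all and detection in 3 libraries.

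**Figure D1:**
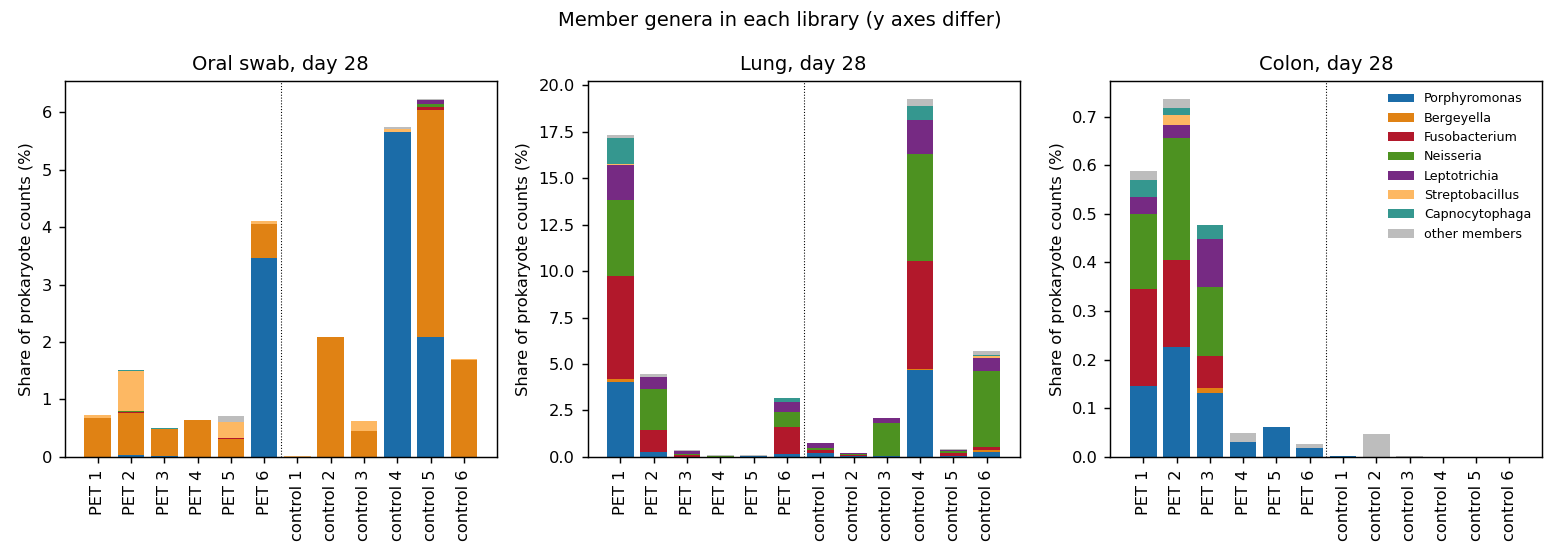
Share of prokaryote counts (%) held by each main genus of the set in every day 28 library of oral swab, lung and colon, stacked, PET libraries left of control libraries and with a separate axis per site. Lung PET 1 and control 4 stand at 17.3% and 19.3%, colon shares reach at most 0.736%, and the oral swab bars are made up mainly of Bergeyella, Porphyromonas and Streptobacillus in proportions that differ from swab to swab.

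The make-up of the set, pooled over the libraries of a site, differed between the sites. In oral swabs 47.8% of its counts were Bergeyella, 45.6% Porphyromonas and 5.07% Streptobacillus, with under 0.426% each for Neisseria, Fusobacterium, Leptotrichia and Capnocytophaga. In lung, Fusobacterium had 29.8% of its counts, Neisseria 28.1%, Porphyromonas 22.4%, Leptotrichia 11.53% and Capnocytophaga 5.62%. In colon, Porphyromonas led with 30.1%, followed by Neisseria with 27.5% and Fusobacterium with 22.5%. The pooled colon figures are those of the PET arm, since of the 89 counts in control colon 96.6% were Flavobacterium. The pooled lung figures are mainly those of PET 1 and control 4, and the Porphyromonas of the mouth that of 3 swabs, as given below.

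Few sequences made up the oral set. The 5 most counted features, Bergeyella features 1 and 2, Porphyromonas features 1 and 2 and Streptobacillus feature 1 (numbered by counts within each genus), held 97.9% of its counts in oral swabs. Bergeyella, a genus known from the mouths of cats and dogs, was found in all 6 PET swabs at 0.318%, 0.613% and 0.733% (lowest, median and highest). In control swabs it was at 0%, 1.07% and 3.95%, with controls 1 and 4 at 0. The fitted log2 difference of PET minus control was -0.68 ± 1.50 (standard error), with an adjusted p of 0.970 from the quasi-likelihood test of edgeR.

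The Bergeyella counts of the mouth split over a pair of sequences. Feature 1 was in 6 of 6 PET swabs (0.0260%, 0.460% and 0.628%) and in 4 of 6 control swabs (0%, 1.07% and 3.95%). Feature 2 was in 6 of 6 PET swabs (0.00877%, 0.0938% and 0.427%) and in 1 of 6 control swabs, with 28 counts in control 3. The arms did not overlap in feature 2, by a narrow margin, since control 3 stood at 0.00774% and the other controls at 0. It was the only one of 460 features tested in the mouth whose arms did not overlap with PET higher (0.217%), and none did so with PET lower. Its log2 difference was 6.43 ± 1.85 at an unadjusted p of 0.00429 (edgeR), which did not pass after adjustment over the 460 features (adjusted p = 0.405). Since 1 control swab held it, feature 2 passed the filter of the test only through PET swabs. Neither the lack of overlap nor this difference is therefore support by itself.

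Porphyromonas of the mouth was carried by 3 swabs. It stood at 3.47% in PET 6 and at 5.66% and 2.09% in controls 4 and 5, and at most at 0.0326% in every other swab. Feature 1 had 13137 of its 28762 oral counts in PET swabs and 15625 in control swabs, and feature 2 had 9174 counts, all in controls 4 and 5. The fitted difference of the genus was -0.40 ± 2.54 (adjusted p = 0.976, edgeR).

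Streptobacillus was in 4 of 6 PET swabs, at 0%, 0.0480% and 0.698% (lowest, median and highest), and in 5 of 6 control swabs, at 0%, 0.0122% and 0.168%. Its difference was 0.35 ± 1.52 (adjusted p = 0.970, edgeR). Neisseria, Fusobacterium and Leptotrichia were traces in the mouth. Fusobacterium had 98 counts in 3 PET swabs and 195 in control 5 alone, Neisseria 65 counts in PET 2 and 293 in 3 control swabs, and Leptotrichia 11 counts in PET 3 and 246 in control 5. Capnocytophaga had 51 counts in 2 PET swabs and 0 in control swabs.

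No exposure difference passed the test for any genus of the set in oral swabs. Of 6 that passed the filter, edgeR called 0, against 0.0% of 175 genera tested, and 0 of the 6 and 9 of the 175 had an unadjusted p under 0.05. DESeq2, limma and the exact permutation test per genus also called 0 of the 6. The median log2 difference was -0.54 over the 6 and -0.18 over the 175.

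**Figure D2:**
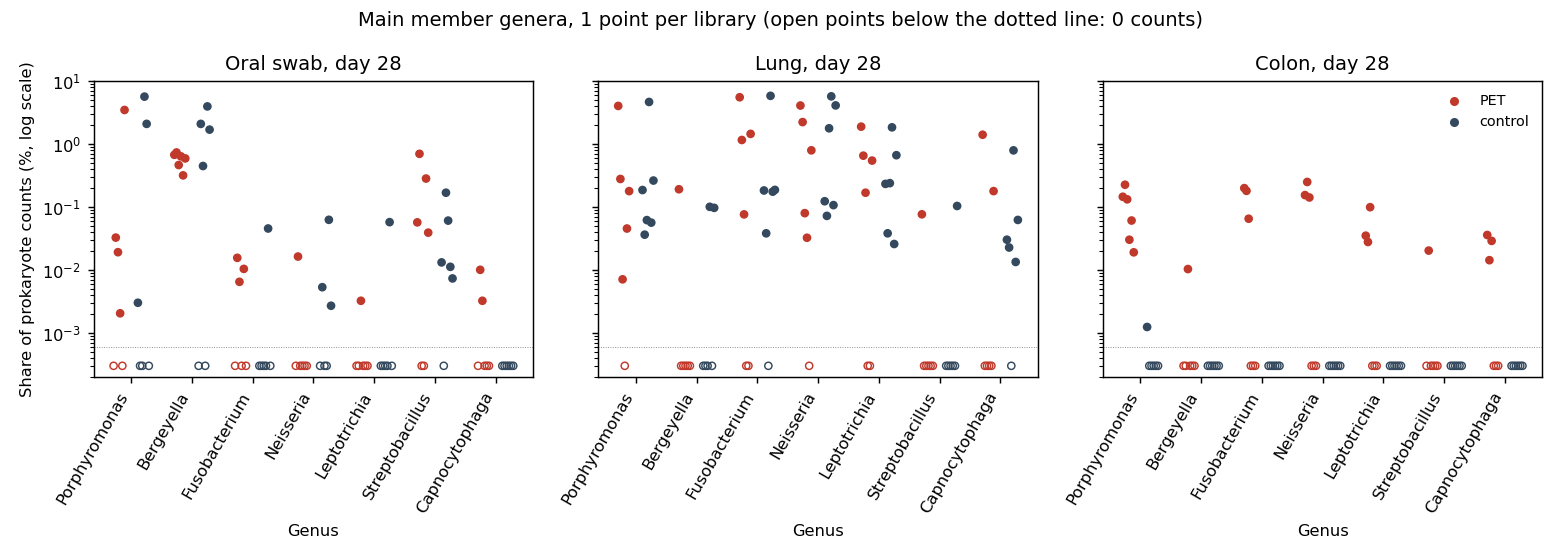
Share of prokaryote counts (%, log scale) of the 7 main genera in each library at day 28, 1 point per library, PET left of control, with libraries at 0 counts as open points below the dotted line. PET and control points intermingle in oral swab and lung, while in colon nearly all control points are at 0 and Porphyromonas is present in 6 of 6 PET libraries.

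The lung set was carried mainly by 1 library of each arm. PET 1 held 21314 of its counts and control 4 held 22823, together 86.99% of those in lung, at 17.3% and 19.3% of prokaryote counts. Both arms are therefore given with and without these. Without them the summed share was 1.65% ± 2.05 in PET and 1.84% ± 2.29 in control libraries (SD, n = 5 each), against 4.26% ± 6.66 and 4.74% ± 7.41 with them (n = 6 each). The 2 libraries also led in other genera common in the human mouth, a list of 27 such as Prevotella, Veillonella and Alloprevotella, which summed to 33.1% in PET 1 and 28.7% in control 4. Control 2 had as much of that list, 26.2%, but only 0.210% of the set described here. The part of those genera in the lung results was not tested.

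Fusobacterium stood at 0%, 0.617% and 5.53% (lowest, median and highest) in PET lung libraries and at 0%, 0.179% and 5.82% in control lung libraries. It was detected in 4 of 6 PET and 5 of 6 control libraries. The fitted difference was 0.27 ± 1.68 (adjusted p = 0.997, edgeR). Neisseria was at 0%, 0.437% and 4.08% in PET and at 0.0722%, 0.950% and 5.71% in control libraries, with a difference of -0.34 ± 1.42 (adjusted p = 0.997, edgeR). Besides the pair named above, control 6 and control 3 were high in it, at 4.10% and 1.78%, as was PET 2 at 2.23%. Without PET 1 and control 4, Fusobacterium averaged 0.536% ± 0.708 in PET and 0.116% ± 0.0900 in control libraries, with highest values of 1.45% and 0.187%, and Neisseria 0.627% ± 0.954 and 1.24% ± 1.76 (SD, n = 5 each).

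Porphyromonas of lung was at 0%, 0.112% and 4.02% in PET and at 0.0363%, 0.124% and 4.65% in control libraries. Leptotrichia was at 0%, 0.357% and 1.89% in PET and at 0.0258%, 0.236% and 1.84% in control libraries. Capnocytophaga was in 2 of 6 PET and 5 of 6 control libraries, at up to 1.40% and 0.792%. All 3 were highest in PET 1 and control 4. Without these, Porphyromonas averaged 0.102% ± 0.122 in PET and 0.121% ± 0.0989 in control libraries, and Leptotrichia 0.273% ± 0.308 and 0.240% ± 0.258 (SD, n = 5 each). Eikenella, a plaque relative of Neisseria, was found in lung only in these same libraries, at 0.140% and 0.131%, and Kingella, another such relative, only in control 4 with 151 counts.

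No exposure difference passed the test in lung either. Of 9 that passed the filter edgeR called 0, against 0.0% of 233 genera tested, with 0 of the 9 and 20 of the 233 at an unadjusted p under 0.05. DESeq2, limma and the exact permutation test per genus called 0 of the 9. The median log2 difference was 0.23 over the 9 and -0.09 over the 233. Without PET 1 and control 4, 7 genera passed the filter and 0 were called.

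PET 1 and control 4 held the same main genera but few common sequences of them. They held 151 and 154 features of the set, with 13 in common, 8.61% of those of PET 1 and 8.44% of those of control 4. Of the other prokaryote features of these libraries, 29.3% of those of PET 1 and 30.96% of those of control 4 were in common. The shared features of the set carried 20.6% of the counts in PET 1 and 27.2% in control 4. No single feature led there, since none held more than 6.01% of the counts of the set in PET 1 or 4.97% in control 4. Of Leptotrichia, the 2 libraries shared 0 of 22 and 18 features, and of Neisseria 6 of 36 and 41.

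Of the 529 features, 26.8% carried a species name in the deposited taxonomy, with 34 names in all. Porphyromonas pasteri was the most frequent with 46 features and 5322 counts, of which 5005 were in lung, 150 in colon and 167 in oral swabs. Fusobacterium periodonticum had 19 features and 4571 counts in lung, 94 in colon and 1 in oral swabs, and Capnocytophaga leadbetteri had 8 features, with 715 counts in lung and 51 in oral swabs. Fusobacterium nucleatum had 9 features and Porphyromonas gingivalis 4, each found at all of these sites. These names are the classifier's choice for a short stretch of 1 gene, at a confidence as low as 0.708. The leading oral features, Bergeyella features 1 and 2 and Porphyromonas features 1 and 2, carried no species name.

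In colon the set was found almost wholly in PET libraries. PET colon held 2241 of its counts in 75 features and control colon 89 counts in 2 features. The control counts were 82 and 4 of Flavobacterium in controls 2 and 3 and 3 of Porphyromonas in control 1, and controls 4, 5 and 6 had none. Without Flavobacterium the summed share was 0.323% ± 0.315 in PET and 0.000207% ± 0.000507 in control libraries (n = 6 each). PET libraries 1, 2 and 3 stood at 0.588%, 0.736% and 0.477%, and PET 4, 5 and 6 at 0.0494%, 0.0609% and 0.0266%.

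Porphyromonas was the only genus of the set in all 6 PET colon libraries. Its shares there were 0.145%, 0.225%, 0.132%, 0.0302%, 0.0609% and 0.0190%, and in control colon 0.00124% in control 1 and 0 in the other 5. The arms did not overlap, and Porphyromonas was the only genus tested in colon of which this held (0.709% of them). Its log2 difference was 8.52 ± 2.13 (adjusted p = 0.00315, edgeR). It kept its call in 12 of 12 fits that left out 1 library, and with DESeq2 and limma, but not in the exact permutation test per genus after adjustment (adjusted p = 0.0763). With 3 counts in 1 control library, Porphyromonas passed the filter only through PET libraries. The lack of overlap and the call are therefore no support independent of that filter.

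Neisseria, Fusobacterium, Leptotrichia and Capnocytophaga were each detected in PET 1, 2 and 3 and in no other colon library. Neisseria stood there at 0.154%, 0.249% and 0.141%, and Fusobacterium at 0.199%, 0.180% and 0.0651%. Against 0 of 976911 counts in control colon, which allows a share of up to 0.000307%, the pooled PET share was at least 279-fold higher for Neisseria and at least 228-fold higher for Fusobacterium. Without PET 2, which held 51.8% and 45.7% of their counts, these bounds were 163-fold and 151-fold. Leptotrichia was at 0.0350%, 0.0278% and 0.0991% (at least 74.8-fold higher, and at least 37.96-fold without PET 3). Capnocytophaga was at 0.0359%, 0.0143% and 0.0289% (at least 37.8-fold higher, and at least 24.02-fold without PET 1). PET 4, 5 and 6 were at 0 for these 4 genera, as were all controls.

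edgeR called 5 of 5 genera of the set that passed the filter in colon, all higher in PET, against 13.5% of all genera tested there that were called higher. That count supports nothing by itself, because all 5 passed the filter only through PET libraries. Porphyromonas had 3 counts in control 1, and the other 4 were at 0 in every control and so had to differ. Their adjusted p-values were 0.00315 for Neisseria, 0.00318 for Fusobacterium, 0.0144 for Leptotrichia and 0.0360 for Capnocytophaga. The calls other than Porphyromonas rested on PET 1, 2 and 3. Without PET 1, without PET 2 or without PET 3 those 4 genera fell under the filter and only 1 call was left, and without control 1 there were 3. Capnocytophaga lost its call in 5 of the 9 fits that could test it. limma on centred log ratios called only Porphyromonas, DESeq2 called 4, and the exact permutation test called 0, with 5 at an unadjusted p under 0.05.

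The other labels of the set in PET colon were found in 1 or 2 libraries each. Streptobacillus had 27 counts in PET 2, Eikenella 20 in PET 1, Weeksella 15 in PET 6, Simonsiella 11 in PET 2 and Bergeyella 10 in PET 3. Unclassified Neisseriaceae had 15 counts in PET 2 and PET 6, unclassified Weeksellaceae 14 in PET 4 and unclassified Flavobacteriaceae 5 in PET 2. Neither of the Bergeyella features of the mouth was found in colon.

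Some other genera were also higher in PET colon. Of 5 skin genera, 4 had counts in PET colon, where their summed share ran from 0% to 0.221%, and all 5 were at 0 in every control library. Cutibacterium was in 4 PET libraries (427 counts, adjusted p = 0.00315, edgeR) and Corynebacterium in 5 (233 counts, adjusted p = 0.0103). Both passed the filter only through PET libraries and so had to differ, as did Selenomonas, Megasphaera, Catonella and Gemella, which were also at 0 in every control library. Of 8 tested genera of the human mouth list, Selenomonas, Megasphaera, Dialister, Catonella and Veillonella were higher in PET and none was lower, and the summed share of the list ran from 0.0578% to 8.57% in PET and from 0.0219% to 1.63% in control colon. Of 4 tested genera of the mouse mouth, Gemella was higher, and the summed share of that list ran from 0.104% to 0.419% in PET and from 0.0439% to 0.170% in control colon. The main mouse mouth genera did not pass, with log2 differences of 1.30 ± 1.31 for Streptococcus (adjusted p = 0.713, edgeR) and -0.81 ± 1.46 for Muribacter (adjusted p = 0.928). Of 6 tested genera often found in reagents and 5 gut anaerobes, 0 were called. Within PET colon these genera did not always follow the set. PET 5 had the highest share of the human mouth list, with Dialister at 5.94%, but 0.0609% of the set and 0% of the skin genera. The part of these genera in the colon result was not tested.

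**Figure D3:**
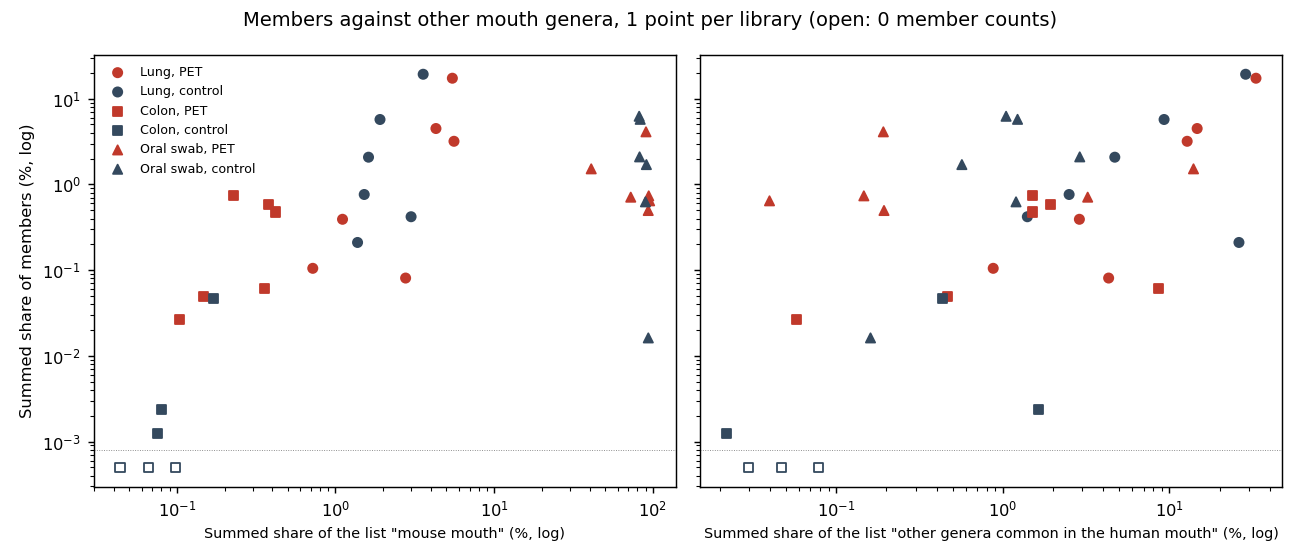
Summed share of the set (%, log scale) against the summed share of the mouse mouth list (left) and of other genera common in the human mouth (right) in each lung, colon and oral swab library at day 28. Oral swabs lie at 40.9% or more of mouse mouth genera, while lung PET 1 and control 4 are at the top right of the human mouth panel, and 3 control colon libraries have 0 counts of the set (open squares).

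The exposure effect on 4 genera was called different between colon and mouth. The effect in colon minus that in oral swabs was 14.2 ± 3.47 on the log2 scale for Neisseria (adjusted p = 0.0107, edgeR), 13.5 ± 3.66 for Leptotrichia (0.0206), 11.9 ± 3.58 for Fusobacterium (0.0282) and 8.90 ± 2.98 for Porphyromonas (0.0475). That is 4 of 12 genera of the set that entered this fit, against 7.32% of 314 genera higher in this contrast. Another 5 of the 12 could not be fitted because a group was at 0 on both sides. The fitted sizes for Neisseria, Leptotrichia and Fusobacterium depend on a prior count, since control colon was at 0. Porphyromonas had 3 counts in 1 control colon library. In colon these 4 genera met the filter only through PET libraries, so that the count of 4 is no support by itself. Without oral control 5, which held all Fusobacterium and Leptotrichia counts of control swabs, 1 call was left, and without colon control 1 or colon control 2 there were 2. Porphyromonas lost its call in 18 of 48 fits that left out 1 library, with an adjusted p of up to 0.139 (edgeR), and limma called 0 of the 4.

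Against the effect in lung, 1 of the 12 passed, Neisseria with 11.2 ± 3.34 (adjusted p = 0.0360, edgeR), against 6.05% of 314 genera. Neisseria was at 0 in every control colon library, so that this call is no support by itself. Chryseobacterium could not be fitted in this contrast because a group was at 0 on both sides. The count of 1 depended strongly on single libraries. It was 7 without lung PET 1, 4 without lung PET 5, lung control 1, 3 or 6 or oral PET 2, 2 without lung PET 2 or 6, and 0 without lung PET 3, colon PET 3 or any 1 of the 6 colon controls. Without both lung PET 1 and control 4 it was 6. Against the effect in stool, 0 of the 12 passed, against 12.1% of 314 genera called in either direction, and 10 of the 12 could not be fitted because a group was at 0 on both sides. Of the 12, 1 had an unadjusted p under 0.05. limma called 0 and DESeq2 6, and edgeR called 1 without lung PET 1.

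Sites were also set against each other over both arms. In lung against oral swabs, 7 of 12 genera were higher, against 30.9% of 314 genera, and 2 were lower, against 10.2%. Pooled over the arms, Fusobacterium was at 1.38% in lung and 0.00803% in oral swabs (log2 6.87 ± 1.65, adjusted p = 0.00136, edgeR), Neisseria at 1.30% and 0.00981% (7.09 ± 1.56, 0.000850) and Leptotrichia at 0.535% and 0.00704% (6.41 ± 1.64, 0.00234). Capnocytophaga, Eikenella, Flavobacterium and unclassified Flavobacteriaceae were the others that were higher. Of these, Eikenella, Flavobacterium and unclassified Flavobacteriaceae were at 0 in every oral swab, so that they passed the filter only through other sites. Leptotrichia was in 1 PET and 1 control swab and Capnocytophaga in 2 PET swabs. Both were under the filter in the mouth and likewise passed it only through other sites. Eikenella was found in 2 of the lung libraries, PET 1 and control 4, and unclassified Flavobacteriaceae in 2, with 29 counts in PET 4 and 3 in control 4. The sign of unclassified Flavobacteriaceae turned in limma (-0.0065). Bergeyella, at 0.0336% in lung and 1.10% in oral swabs (-6.58 ± 1.52, 0.000850), and Streptobacillus, at 0.00996% and 0.117% (-4.03 ± 1.61, 0.0384), were lower. Streptobacillus was in 1 PET and 1 control library of lung and was under the filter there. The counts of 7 and 2 are thus no support by themselves. Porphyromonas was at 1.04% in lung and 1.05% in oral swabs and did not pass (-1.71 ± 1.27, 0.279).

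Part of that contrast came with PET 1 and control 4 of lung. Without them 6 of 10 genera passed in edgeR, of which 4 had also passed with them, namely Neisseria, Flavobacterium, Bergeyella and Streptobacillus. The other two were lower in lung, Porphyromonas (log2 -7.69, adjusted p = 3.25e-05) and unclassified Neisseriaceae (-5.45, 0.0238). The higher calls of Fusobacterium (log2 1.45, adjusted p = 0.540), Leptotrichia (2.13, 0.327) and Capnocytophaga (3.56, 0.138) were lost. Neisseria kept its call (3.72, 0.0365), and Bergeyella stayed lower in lung (-13.89, 4.29e-09). Bergeyella and Streptobacillus were then found in lung only in control 6, and unclassified Neisseriaceae only in PET 5 and control 1. These genera thus passed the filter only through other sites.

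In colon against oral swabs, 4 of 12 genera were lower, against 9.55% of 314. Another 4 of the 12 could not be fitted because a group was at 0 on both sides. Bergeyella was at 0.00058% in colon and 1.10% in oral swabs (log2 -13.21 ± 2.06, adjusted p = 9.55e-07, edgeR), and Porphyromonas at 0.0407% and 1.05% (-8.84 ± 1.77, 0.000161). Streptobacillus (-9.08 ± 2.11, 0.00196) and unclassified Neisseriaceae (-6.77 ± 1.96, 0.0149) were the others. In colon, Bergeyella had 10 counts in 1 library, Streptobacillus 27 in 1 and unclassified Neisseriaceae 15 in 2. None of these met the filter there, so that they passed it only through other sites. The count of 4 is thus no support by itself. The pooled oral share of Porphyromonas came mainly from PET 6 and controls 4 and 5. Its median in PET libraries was 0.0965% in colon and 0.0106% in oral swabs, and in control libraries 0% and 0.00151%. It lost its call in 2 of 9 settings other than leaving out 1 library. Neisseria, Fusobacterium and Leptotrichia did not pass, and their pooled share was higher in colon while the fitted value, which weighs the arms equally on the log scale, was negative. For Neisseria these were 0.0371% in colon, 0.00981% in oral swabs and a log2 value of -2.33 ± 1.49 (adjusted p = 0.378, edgeR).

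In colon against lung, 11 of 12 genera were lower, against 39.5% of 314. Neisseria was at 0.0371% in colon and 1.30% in lung (-9.41 ± 1.85, adjusted p = 0.0001065, edgeR), and Fusobacterium at 0.0304% and 1.38% (-9.56 ± 1.98, 0.000209). The count was 4 of 10 without lung PET 1 and control 4, namely Neisseria, Fusobacterium, Leptotrichia and Chryseobacterium, and 7 without lung PET 1 or without lung control 6 alone. With PET libraries alone it was 0 of 9, and with control libraries alone 6 of 9. Flavobacterium and unclassified Neisseriaceae lost their calls in 18 and 34 of the 48 fits that left out 1 library. Chryseobacterium was at 0 in every colon library, so that it passed the filter only through other sites and could only be lower in colon. Bergeyella, Eikenella, Streptobacillus, Flavobacterium and unclassified Neisseriaceae were each in 1 or 2 colon libraries. They did not meet the filter in colon and likewise passed it only through other sites. The count of 11 is thus no support by itself. Neisseria, Fusobacterium and Leptotrichia were at 0 in every control colon library. In oral swabs against stool, 8 of 12 were higher, against 38.2% of 314, led by Porphyromonas (15.65 ± 2.11, 1.47e-08) and Bergeyella (14.75 ± 2.03, 2.2e-08). The other 4 could not be fitted because a group was at 0 on both sides. Of the 8, only Porphyromonas, with 4 counts, and Bergeyella, with 13, were found in stool at day 28. Neither met the filter there, and the others were at 0, so that all 8 passed it only through other sites. The count is thus no support by itself.

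**Figure D4:**
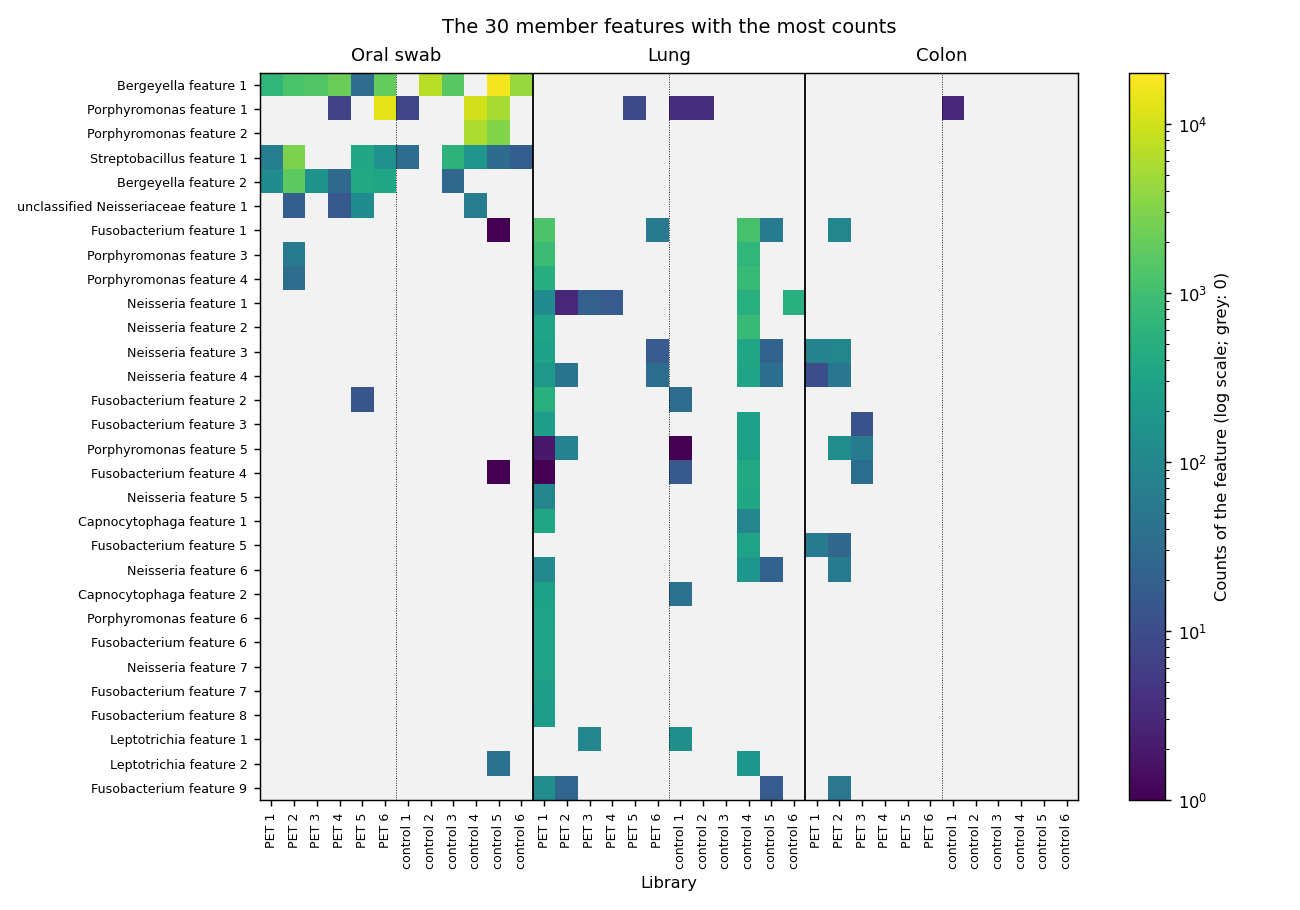
Counts (colour, log scale) of the 30 most counted features of the set in each day 28 library, PET libraries left of control libraries within a site, grey for 0. The 6 rows at the top are features mainly of oral swabs, and most others are mainly of lung PET 1 and control 4. Leptotrichia feature 1 lies in lung PET 3 and control 1 instead, and Neisseria feature 1 is highest in lung control 6. The few coloured colon cells lie in PET 1, 2 and 3 and control 1.

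Mouth, lung and colon shared few of these sequences. Of 77 features of the set in colon and 59 in oral swabs, 3 were in common, 3.90% of those of colon and 5.08% of those of the mouth. Other prokaryote features were shared between these sites at 41.7% of those of colon and 38.5% of those of the mouth. Colon and lung shared 17, which is 22.1% of the 77 in colon and 4.06% of the 419 in lung, against 33.9% and 18.04% for other features. Lung and oral swabs shared 13, or 3.10% of those of lung and 22.03% of those of the mouth, against 20.9% and 36.2%.

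These shares are descriptions without a test, and they depend on how often a feature was seen. Of the 529 features, 91.3% were detected in 1 library only, against 72.5% of other prokaryote features. Such features carried 1.45% of the counts of the set in oral swabs, 70.9% in lung and 56.5% in colon, and 1.94% of the counts of other features. No feature of the set was in more than 11 libraries. Where detection in 2 libraries of a site was asked for, colon and lung shared 4 of 6 and 27 features, colon and oral swabs 0 of 6 and 7, and lung and oral swabs 1 of 27 and 7. The 4 are 66.7% of those of colon and 14.8% of those of lung, against 37.2% and 37.8% for other features, so that the share of colon features also in lung was then higher in the set. Other features were shared between colon and oral swabs at 54.7% and 57.2%, and between lung and oral swabs at 43.97% and 45.3%. Without lung PET 1 and control 4, lung held 144 features, of which 9.03% were also in colon and 6.94% also in oral swabs.

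**Figure D5:**
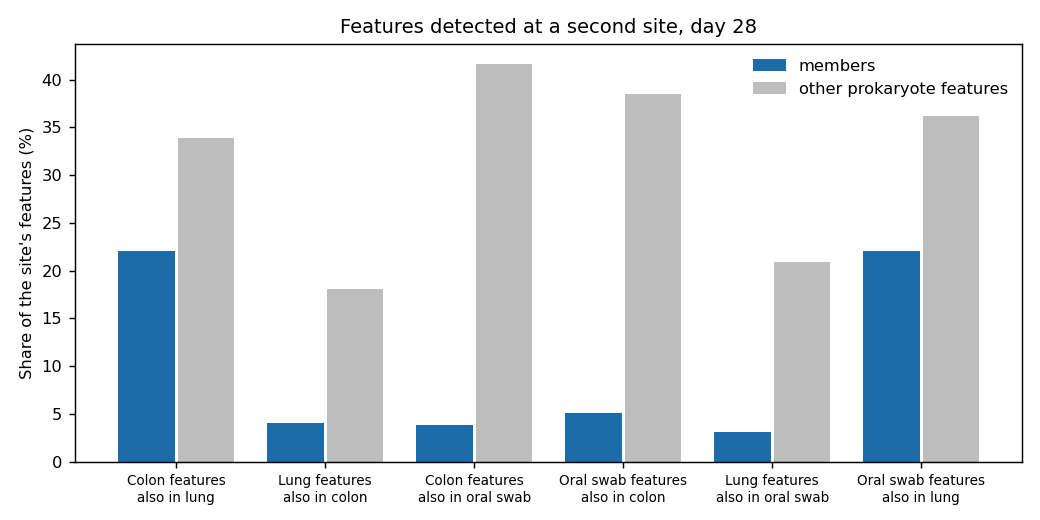
Share (%) of the features of 1 site that were also detected at a second site at day 28, for the set described here and for all other prokaryote features. The bars of the set, with 1 count in 1 library taken as detection, are lower than those of other features in all 6 directions, with 22.1% of colon features also in lung but 3.90% also in oral swabs.

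Only 3 features of the set were found at all of the 3 sites, named here after their values were seen. Porphyromonas feature 1 had 28762 counts in oral swabs, 17 in lung and 3 in colon, all of these in control 1. Fusobacterium feature 1, named Fusobacterium periodonticum in the taxonomy, had 1 count in oral swabs, 2529 in lung and 94 in colon. Fusobacterium feature 4 had 1 count in oral swabs, 434 in lung and 36 in colon. Each was thus plentiful at 1 site or 2, and had at most 17 counts at another. Of 525 features of the set seen at any of the 3 sites, 94.9% were seen at only 1 of them, against 78.7% of 5195 others.

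The Porphyromonas of PET colon had no sequence in common with that of the mouth. It was made of 22 features, and 0 of them were among the 15 Porphyromonas features of oral swabs. The only colon count of the main mouth sequence, Porphyromonas feature 1, was the 3 counts in control 1. With lung it shared 3 of the 22, which held 35.1% of its 699 counts. Of the 22, 20 were in 1 colon library and 2 were in 2, so that all 6 PET libraries held the genus without 1 sequence common to them.

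Neisseria in colon likewise shared 0 of 17 features with the 8 of the mouth, and 4 of them, with 52.0% of its counts, with lung. Neisseria feature 3, chosen after its values were seen, had 80 and 96 counts in colon PET 1 and 2, 287 and 17 in lung PET 1 and 6, and 344 and 23 in lung controls 4 and 5. Fusobacterium shared 6 of 14 colon features with lung, with 54.5% of its counts, and 2 of 14 with the mouth. Leptotrichia shared 1 of 9 with lung and 0 with the mouth, and Capnocytophaga 0 of 4 with either site. Lung and mouth shared 0 Neisseria and 0 Capnocytophaga features, 4 of Porphyromonas and 3 of Fusobacterium.

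The lung libraries that shared features with colon were of both arms. PET colon shared 15 of its 75 features with lung, with 39.9% of its counts, and 2 with the mouth. Each arm of lung held 14 features that were also in colon, of 199 in PET lung and 245 in control lung. In colon, 70 of the 75 PET features were in 1 library and 5 in 2, so that 93.3% were in a single PET colon library, against 67.4% of the 1341 other prokaryote features of PET colon.

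Among the genera outside the set, those most often detected in the same libraries differed by member. The measure was the Jaccard index, the number of libraries with both genera over the number with either, across 60 libraries. Neisseria was closest to Selenomonas (0.737, 14 libraries with both), and Leptotrichia and Fusobacterium to unclassified Pasteurellaceae (0.737 and 0.714). Porphyromonas was closest to Corynebacterium, tied with 1 other genus (0.647), and Bergeyella to Campylobacter (0.519). Within the set, Fusobacterium, Neisseria and Leptotrichia were found together, with an index of 0.737 for the pairs of Leptotrichia with either of the others. These indices share library depth and site, and no test was made of them.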

How the data were processed

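The counts are reads per 16S rRNA gene sequence (regions V3 and V4) and library, deposited as whole numbers in 1 table built from a biom file, per the file headers. Of tools, the submitters' processing notes list only cutadapt and Bowtie2, beside the mouse genome GRCm39, without versions or roles. Which denoiser, classifier and database served is not given in the sources used here. The deposited taxonomy gives a lineage per feature with a classifier confidence, a fraction whose making the file headers do not record.

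Prokaryote features held 99.3% of counts, and shares are percentages of them. Where a group was at 0, a floor of 3 counts over the group was used. Features were summed to genera and tested with edgeR 4.0.16 (quasi-likelihood F test, TMM normalisation) in R 4.3.3, on genera with at least 10 counts and detection in 3 libraries. Exposure was tested on the 12 libraries of a site. Contrasts between sites, and of exposure effects between sites, came from 1 fit on the 48 libraries of day 28. P-values were adjusted over all genera tested (Benjamini-Hochberg), with a threshold of 0.05, and the code was tested on simulated data. Of simulated genera raised 8-fold, 32-fold and 128-fold in PET, edgeR called 0 of 9, 0 of 9 and 4 of 8 in colon. In lung it called 0 of 14, 2 of 14 and 4 of 14, and in oral swabs 3 of 11, 3 of 11 and 4 of 10. Most simulated differences of these sizes were thus missed. The alternatives were TMMwsp, library totals, DESeq2 1.42.0, limma 3.58.1 on centred log ratios (0.5 added to counts), other filters, family and feature level, a confidence of at least 0.9, a narrower lineage rule, the exact permutation test per genus over 924 arrangements, 1 arm alone, and each library left out. Leaving out lung PET 1 and control 4, or 4 libraries whose label numbers stand apart, was chosen after seeing the data.

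Libraries were grouped by the labels. No label ties them to animals, so that contrasts between sites treat libraries as independent, although sites may come from the same mice. Intervals and floors cover counting error only. The genera named had at least 100 counts or passed a test, and the features named were the 10 most counted and those said to be chosen after their values were seen. The bacteria described, the comparison lists and the tests were chosen with earlier results of these data known.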

Additional observations from a re-analysis of the deposited data

Results flagged for a closer look

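In groups of 6 libraries, a library was picked out where its gap to the nearest other exceeded the critical value of Dixon's test. Of 27 group measures checked, 17 had such a library, where chance gives about 1 in 20 for independent, normally distributed measures. These shares hold many zeros, and the same libraries recur in them.

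Lung PET 1 stood apart in the summed share (17.3%, the next PET library at 4.49%), the number of features (151, next 24), Porphyromonas (4.02%), Fusobacterium (5.53%) and Leptotrichia (1.89%). Lung control 4 stood apart in the same measures, with a summed share of 19.3% (next 5.72%), 154 features (next 41), Porphyromonas at 4.65%, Fusobacterium at 5.82% and Leptotrichia at 1.84%, and also in Capnocytophaga at 0.792%.

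In the mouth, PET 6 stood apart in the summed share (4.10%) through Porphyromonas (3.47%), PET 2 in the number of features (17, next 8) and PET 5 in unclassified Neisseriaceae (0.0920%). Among control swabs, control 5 stood apart with 29 features (next 6) and control 3 in Streptobacillus (0.168%).

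The exposure effect differed between sites by the test of the difference itself (edgeR) for 4 genera in colon minus oral swabs, namely Neisseria with 14.22 on the log2 scale, Leptotrichia with 13.46, Fusobacterium with 11.85 and Porphyromonas with 8.90. In colon minus lung it differed for Neisseria, with 11.23. All of the control colon libraries were at 0 for Neisseria, Leptotrichia and Fusobacterium, so that the sizes depend on a prior count. Porphyromonas had 3 counts in 1 control colon library. The calls are thus no support by themselves. Porphyromonas lost its call in 18 of 48 fits that left out 1 library (adjusted p up to 0.139, edgeR), and limma called 0 of the 4.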

How the results depend on the processing

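Of 2737 values recomputed under alternatives, 2474 were rated as kept, 185 lost the call, 70 counts or shares moved and 8 values turned their sign. For a log2 value, kept means the same direction and side of the threshold. For a count of calls or a share, it means a value within set limits of the main one. Where a called genus no longer passed the filter, its log2 value is not among the 2737. No paired analysis was possible because the labels tie no library to an animal or to another group's library. In colon, where 5 genera of the set were called higher in PET, limma called 1, the stricter filter 1, the exact permutation test 0 and the feature level 0, since no feature of the set passed the filter. The counts of 0 for exposure in lung, oral swabs and stool were 0 under all alternatives run, though in stool a genus of the set was tested only with no filter. For colon against oral swabs (4 calls), DESeq2 gave 7 and the PET libraries alone 2. For lung against oral swabs (9 calls), DESeq2 gave 5, the family level 4, the feature level 14, the PET libraries alone 4 and the control libraries alone 2. For colon against lung (11 calls of 12 tested), 6 of 12 passed with DESeq2, 6 of 17 with no filter, 6 of 6 at family level, 6 of 22 at feature level, 6 of 9 with control libraries alone, 3 of 12 with limma, 7 of 11 at a confidence of at least 0.9, 4 of 10 without lung PET 1 and control 4 and 0 of 9 with PET libraries alone. For oral swabs against stool (8 calls), limma gave 4 and the family level 5.

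For the exposure effect in colon minus oral swabs (4 calls), limma and the feature level gave 0. In colon minus lung (1 call), TMMwsp and library totals gave 4, DESeq2 5, limma 0, no filter 3, the family level 2, the feature level 2, a confidence of at least 0.9 3, and leaving out lung PET 1 and control 4 6. In colon minus stool (0 calls), DESeq2 gave 6 and the family level 1. Leaving out 1 library at a time gave 1 to 5 calls for exposure in colon, 0 in lung, oral swabs and stool, 4 to 5 for colon against oral swabs, 7 to 10 for lung against oral swabs, 7 to 11 for colon against lung, 6 to 8 for oral swabs against stool, and 1 to 4, 0 to 7 and 0 to 1 for the effect in colon minus oral swabs, lung and stool. The causes of these changes were not tested.

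The share of colon features also in oral swabs, and of oral features also in colon, was 0% with detection in 2 libraries of a site and with libraries thinned to 10000 counts. With detection in 2 libraries, 66.7% of colon features were in lung and 14.8% of lung features in colon, against 37.2% and 37.8% for other prokaryote features. Without lung PET 1 and control 4, 9.03% of lung features were in colon and 6.94% in oral swabs, against 1.73% of lung features in oral swabs after thinning. The log2 values that turned were unclassified Flavobacteriaceae in lung against oral swabs (-0.0065 with limma) and, in colon against lung, Bergeyella (0.54 without lung PET 1 and control 4), Eikenella (0.36 with limma), Streptobacillus (0.74 with limma, 0.42 without lung PET 1 and control 4, and, with 1 library left out at a time, from -8.23 to 0.15, the highest without lung PET 1) and unclassified Neisseriaceae (0.59 with limma, 1.50 with PET libraries alone). The median log2 value of all genera for exposure in colon was 0.57 in edgeR with TMM, 0.17 under TMMwsp, 0.94 under library totals, 0.38 in DESeq2 and -0.11 in limma. Leaving out the 4 libraries whose label numbers stand apart was run for exposure in stool at day 28 and in lung, where the set had 0 calls with and without them. With 6 libraries a group and detection in few of them, a count of 0 calls does not show that the arms were alike.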
